A study of Mus musculus with 5 samples.

Results

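The 8 genes described here, of salt and divalent ion transport in the loop of Henle and the distal nephron, were followed through ureteric obstruction and its reversal in the mouse kidney. They are 8 of the 28692 genes in the deposited matrices, and were taken by symbol: Slc12a1, Umod, Cldn16 and Kcnj1 of the thick ascending limb, and Slc12a3, Pvalb, Trpm6 and Calb1 of the distal convoluted tubule and the segments after it. The samples were whole kidneys of 8-week-old C57/BL6 mice after sham surgery (day 0), at day 2 or day 7 of unilateral ureteric obstruction (UUO, tying off of 1 ureter), or 7 days after an obstruction had been reversed (experimental day 14). Each group is 1 library from kidneys of 3 pooled mice, digested on ice, sorted for live cells by DAPI exclusion and run on a droplet platform that counts unique molecular identifiers (UMIs) at the 3' end of transcripts. With 1 library a group there is no replicate check, no test was possible, and every interval covers counting error only. Differences between libraries cannot be told apart from differences in how a kidney was dissociated or sorted.

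The thick ascending limb reabsorbs salt without water. Its apical entry step is the cotransporter NKCC2 (Slc12a1, the target of loop diuretics), the potassium it takes up returns to the lumen through ROMK (Kcnj1), and the resulting lumen-positive voltage drives calcium and magnesium between cells through tight junctions that contain claudin-16 (Cldn16). The same cells make uromodulin (Umod), the most abundant protein of normal urine. In the distal convoluted tubule salt enters through NCC (Slc12a3, the target of thiazides) and magnesium through TRPM6 (Trpm6); parvalbumin (Pvalb) is a cytosolic calcium buffer of the early part of that segment, and calbindin-D28k (Calb1) is the calcium buffer of its later part and of the connecting tubule.

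In GRCm38 (GENCODE vM21) the protein-coding genes lie at chr2:125152505-125230002 on the plus strand (Slc12a1), chr7:119462711-119479282 on the minus strand (Umod), chr16:26463135-26482765 on the plus strand (Cldn16), chr9:32372493-32399197 on the plus strand (Kcnj1), chr8:94329201-94366214 on the plus strand (Slc12a3), chr15:78191114-78206400 on the minus strand (Pvalb), chr19:18749983-18892511 on the plus strand (Trpm6) and chr4:15881264-15908064 on the plus strand (Calb1). Slc12a1 and Umod, and likewise Slc12a3 and Pvalb, moved apart in these libraries although they mark the same segments. The 250 bases before RefSeq's annotated start of each are therefore shown, read 5' to 3' on the gene's strand from its GRCm38.p6 table. RefSeq's starts can differ from those of GENCODE, and the windows of Slc12a1, Umod and Slc12a3 end inside the GENCODE genes given above. Capitals mark GCCNNNGGC, the AP-2 motif (the same on both strands), or GTTAAT, an HNF1 core site searched on both strands.
Slc12a1, chr2:125152350-125152599: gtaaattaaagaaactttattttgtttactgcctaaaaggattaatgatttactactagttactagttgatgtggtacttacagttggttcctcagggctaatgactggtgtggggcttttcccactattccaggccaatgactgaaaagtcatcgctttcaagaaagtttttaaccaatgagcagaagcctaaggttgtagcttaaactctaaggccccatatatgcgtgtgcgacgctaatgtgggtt
Umod, chr7:119479263-119479512: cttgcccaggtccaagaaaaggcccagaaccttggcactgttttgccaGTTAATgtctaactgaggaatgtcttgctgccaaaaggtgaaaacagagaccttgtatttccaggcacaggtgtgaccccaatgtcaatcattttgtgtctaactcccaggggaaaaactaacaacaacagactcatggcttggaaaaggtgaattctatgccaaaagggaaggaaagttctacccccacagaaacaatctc
Slc12a3, chr8:94328958-94329207: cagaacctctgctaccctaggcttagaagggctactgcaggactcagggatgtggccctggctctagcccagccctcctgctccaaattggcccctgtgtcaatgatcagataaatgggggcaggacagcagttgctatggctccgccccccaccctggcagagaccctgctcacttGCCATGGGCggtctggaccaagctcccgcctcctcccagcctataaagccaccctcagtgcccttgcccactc
Pvalb, chr15:78206401-78206650: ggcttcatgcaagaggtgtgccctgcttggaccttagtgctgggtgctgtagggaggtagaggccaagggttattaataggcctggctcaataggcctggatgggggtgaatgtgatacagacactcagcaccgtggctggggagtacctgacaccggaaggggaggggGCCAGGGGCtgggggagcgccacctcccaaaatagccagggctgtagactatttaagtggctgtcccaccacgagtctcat
The site in Umod lies 202 bases before its start, and the GCCNNNGGC matches lie 73 bases before that of Slc12a3 and 81 before that of Pvalb. RefSeq's table has another Pvalb window, chr15:78204238-78204487, with its match 164 bases before that start; the one printed adjoins the start of the GENCODE gene. The table holds windows for 7 of the 8 genes. Over the 300-base windows of the table (250 before and 50 after the start), 5 of these 7 genes hold GCCNNNGGC, against 16.6% of all 32851 windows. The units differ, since a gene with more than 1 window, such as Pvalb, counts if any of them holds the motif. GTTAAT is in 1 of 7 and in 7.10% of all windows, and AAGGTCA, a site of the estrogen-related receptors, in 0 of 7 and 4.72%. These letters are a description of the windows and not of binding.

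Tubule cells were taken as cells with at least 1 UMI of Epcam and none of Ptprc, which gave 292 cells in sham, 540 at day 2, 499 at day 7 and 521 after reversal, or 7.79%, 25.01%, 11.6% and 16.6% of the cells kept. Median depth was 4583 UMIs per cell in sham and between 6922 and 8789.5 in the other libraries, and mitochondrial genes gave a median of 28.9% of UMIs in sham, 14.8% and 8.68% in the obstructed libraries of day 2 and day 7, and 13.4% in the reversed one. Between 16 and 39 cell barcodes were shared by any pair of libraries. Of the 1852 gated cells, 123 grouped with endothelium, stroma or leukocytes: 7 in sham, 21 at day 2, 51 at day 7 and 44 after reversal. Summed markers of the thick ascending limb, leaving out the 8 genes, stood at 6255, 1845, 1063 and 2400 CPM (UMIs scaled to a library total of 1000000) in the same order, those of the distal convoluted tubule at 1412, 421, 922 and 1155, and those of injured tubule at 149, 2808, 2179 and 1087, with 2 of 6 injury markers at 0 in sham. Egf alone gave 3570 CPM of the thick ascending limb sum in sham, 204 at day 2 and 128 at day 7, so much of that difference is 1 gene. Markers of other cells in the gate moved too, with the connecting tubule at 6796, 2791, 1685 and 2799 CPM, principal cells at 3382, 1544, 871 and 1079, the proximal tubule at 2040, 352, 419 and 1374 and leukocytes at 109.5, 944, 4159 and 1614. Those of stroma stood at 7.58, 14.3, 465 and 134. A summed level cannot tell fewer cells of a type from less RNA of a gene in each. Depth, mitochondrial share and cell makeup thus differed between the groups. A limit of 20% on mitochondrial UMIs in place of 50% moved the results most, and its values stand together in the last paragraph.

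At day 2, transcripts of the main salt carrier of the loop, of its potassium channel and of both calcium buffers stood more than 2-fold below their sham level in tubule cells, while uromodulin did not differ by that much. Day 7 brought no further 2-fold difference. After reversal NKCC2, parvalbumin and calbindin were more than 2-fold above day 7, and all 3 were still under their sham levels. Several of these calls ended under a limit of 20% on mitochondrial UMIs, where the log2 ratio of day 2 to sham was -0.75 for Slc12a1 and -0.40 for Kcnj1, and that of reversal to day 7 was 0.61 for Slc12a1 and 0.0061 for Calb1, with Pvalb too low to be called. With a call at a 2-fold ratio of summed CPM, 4 of 8 genes were lower at day 2 than in sham (Slc12a1, Kcnj1, Pvalb and Calb1) and 0 higher, where 6.02% of all genes at 10 CPM or more were lower and 6.08% higher. Between day 7 and day 2, 0 of 7 genes passed in either direction, against 0.959% of all genes lower and 6.72% higher. From day 7 to reversal 0 of 8 were lower and 3 higher (Slc12a1, Pvalb and Calb1), against 2.57% and 2.6%. Against sham, the reversed library had 1 gene lower (Pvalb) and 1 higher (Trpm6) of 8, against 2.21% and 10.9%. That last pair of counts turned on scaling: with TMM factors it was 3 lower and 0 higher, and with median-of-ratios factors 4 and 0. It turned on the choice of cells too, with 0 lower at a gate of 2 Epcam UMIs and 0 higher with the gate alone and no quality filters. The median log2 ratio of the genes was -0.95, -0.37, 0.71 (Pvalb at its bound) and -0.69 in the 4 comparisons, and that of all genes tested was within 0.01 of 0 in the first and the third, 0.16 in the second and 0.19 in the fourth.

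**Figure D1:**
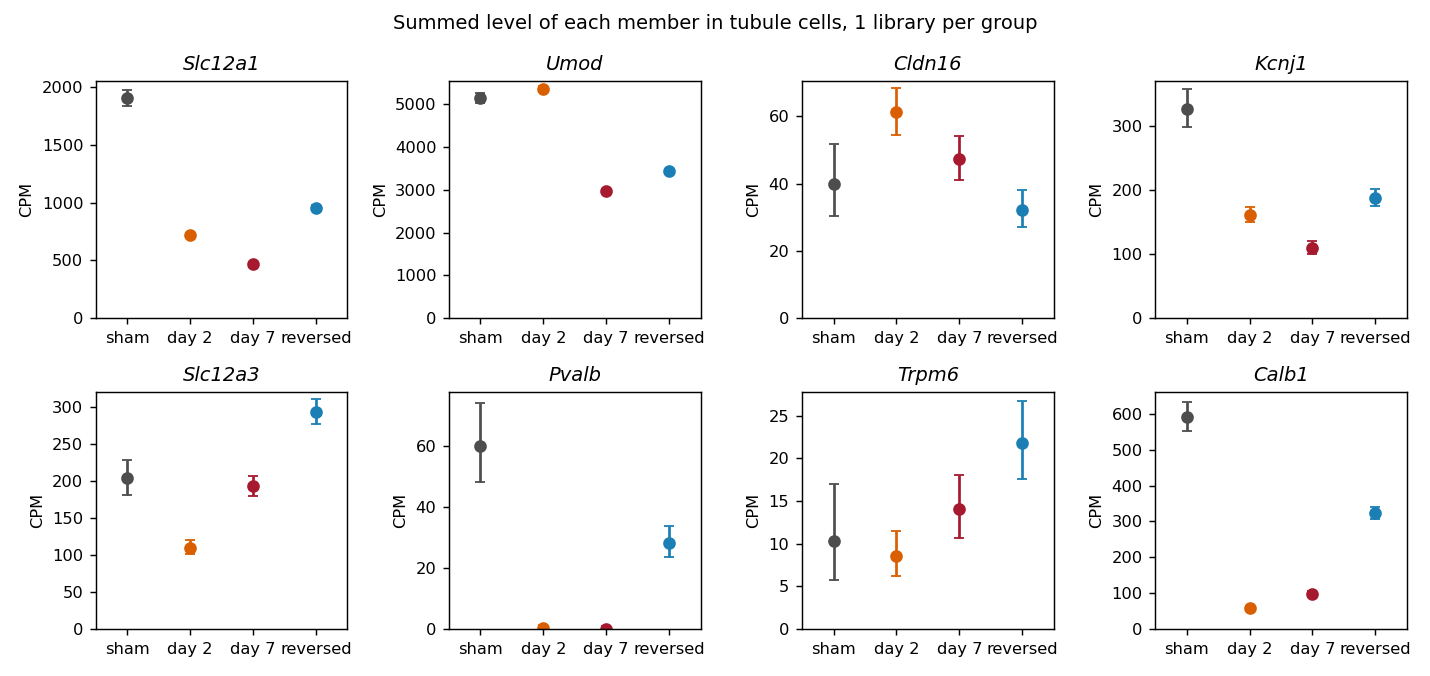
Summed level of each gene in CPM over the tubule cells of a library, in 8 panels with linear axes from 0; points are libraries in time order and bars exact 95% Poisson intervals. Slc12a1, Kcnj1, Pvalb and Calb1 are highest in sham, Umod is nearly level from sham to day 2, and Slc12a3 and Trpm6 are highest after reversal.

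Slc12a1 was highest in sham and lowest at day 7. Its summed level in tubule cells was 1904 CPM in sham (95% interval 1834 to 1976, from 2764 UMIs), 718 at day 2 (695 to 742), 466 at day 7 (446 to 487) and 954 after reversal (924 to 984). No interval overlaps another. The log2 ratio of day 2 to sham was -1.41 (-1.48 to -1.34), that of reversal to day 7 was 1.03 (0.95 to 1.11; 0.90 with a gate of 2 Epcam UMIs), and that of reversal to sham was -0.997 (-1.07 to -0.93), just inside the 2-fold limit.

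Umod, made by the same cells, followed another course. It stood at 5146 CPM in sham, 5359 at day 2, 2977 at day 7 and 3437 after reversal. Sham and day 2 differed by a log2 ratio of only 0.06 (1.44 at the 20% mitochondrial limit), and the lowest library was again day 7, with a ratio to day 2 of -0.85. Cldn16, counted from 58 to 308 UMIs a library, was at 39.95 CPM in sham, 61.2 at day 2, 47.2 at day 7 and 32.3 after reversal. None of its ratios reached 2-fold, and the intervals of sham, day 7 and reversal overlap in part.

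Kcnj1, which the loop, the distal convoluted tubule and principal cells all use, was at 327 CPM in sham, 162 at day 2, 109.9 at day 7 and 188 after reversal. Its order of libraries is that of Slc12a1 at the top and bottom, with a log2 ratio of -1.01 (-1.18 to -0.85) at day 2 against sham. That ratio is at the 2-fold limit, and over 10 other settings, leaving out the 20% mitochondrial limit, it ran from -1.20 to -0.81, with 4 of them (TMM scaling among them) under 2-fold. In sham 46.3% of its UMIs came from the cluster called thick ascending limb-like, 35.8% from principal cell-like and 13.5% from distal convoluted tubule-like cells, so its sum joins 3 segments.

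Slc12a3, the salt carrier of the distal convoluted tubule, was highest after reversal. Its level was 204 CPM in sham, 110.1 at day 2, 193 at day 7 and 294 after reversal. Sham and day 7 overlap within counting error, and no ratio reached 2-fold, the nearest being -0.89 on the log2 scale for day 2 against sham (1.33 at the 20% mitochondrial limit, from 15 sham UMIs). The ratio of reversal to sham was 0.53, -0.11 with the gate alone and no quality filters, and 1.81 at the 20% mitochondrial limit. Trpm6 was sparse, with 15, 43, 60 and 92 UMIs, or 10.3, 8.54, 14.0 and 21.8 CPM. Its reversed library was 2-fold above sham (log2 1.08) on those 15 sham UMIs, with the other neighbours in the order of levels overlapping.

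Pvalb all but vanished during obstruction. Its level was 59.9 CPM in sham (48.0 to 73.9, from 87 UMIs), 0.397 at day 2 from 2 UMIs, 0 at day 7 with 0 UMIs, and 28.2 after reversal (23.4 to 33.8, from 119 UMIs). The log2 ratio of day 2 to sham was -7.24, with a counting interval of -10.30 to -5.34, and reversal was at least 40.3-fold higher than day 7 with day 7 set to a floor of 3 UMIs (log2 5.33, with 5.01 as the lower counting limit against that floor). At the 20% mitochondrial limit that bound was 1.35 on the log2 scale, from 6 reversed UMIs at 1.99 CPM, under the 10 CPM needed for a call. Leukocytes and endothelial cells held no Pvalb UMI at day 2 or day 7. Over all cells kept the counts were 207, 5, 1 and 206 UMIs, so Pvalb was nearly absent at day 2 and day 7 without the Epcam gate too.

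Calb1 showed the next widest swing. It was at 592 CPM in sham, 57.2 at day 2, 96.8 at day 7 and 323 after reversal. The log2 ratio of day 2 to sham was -3.37 (-3.57 to -3.18), that of day 7 to day 2 was 0.76, that of reversal to day 7 was 1.74 (1.58 to 1.90; 0.0061 at the 20% mitochondrial limit) and that of reversal to sham was -0.87. Day 7 was thus already above day 2 while Slc12a1, Umod and Kcnj1 were at their lowest.

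The level of a gene in a set of cells is the product of the share of cells with a UMI and the number of UMIs per positive cell, so each cell was thinned to 1000 UMIs and the log2 ratio was split into both terms. At this depth the share term was the larger of the pair for 3 of 4 genes at day 2 against sham, 5 of 5 at day 7 against day 2, 1 of 5 on reversal against day 7 and 3 of 4 on reversal against sham. The share term was the larger for 83.5%, 85.5%, 84.2% and 84.2% of all genes in these comparisons. The count on reversal against day 7 turned on the cut of 1 UMI. At 2 or more UMIs the share and level terms were 0.94 and 0.54 for Slc12a1, 0.39 and 0.25 for Umod and 0.97 and 0.43 for Slc12a3. At 3 or more they were 1.43 and 0.28 for Slc12a1 and 0.40 and 0.25 for Umod. The share term was thus the larger for each gene with a split at these cuts. Most genes lie near 1 UMI per positive cell, where a lower level shows as fewer positive cells, and for Cldn16, Trpm6 and Kcnj1, with levels of 1.00 to 1.43 UMIs, the split cannot separate share from level.

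The exceptions were the genes with many UMIs per cell. Slc12a1 was found in 33.9% of tubule cells in sham at 5.74 UMIs per positive cell, in 26.1% at day 2 at 2.96, in 15.2% at day 7 at 3.08 and in 24.0% after reversal at 5.05. Between sham and day 2 the level term was -0.95 and the share term -0.38, and between day 2 and day 7 the share term was -0.78 and the level term 0.05. So by this cut UMIs per positive cell were lower at day 2 than in sham and hardly differed from day 2 to day 7, while positive cells were fewer at day 7 than at day 2. Both splits depend on the settings. From day 2 to day 7 a cut above the 99th percentile of leukocytes gave a share term of -0.24 and a level term of -0.32, and the 20% mitochondrial limit gave -0.21 and 0.21. For sham and day 2 they depend on what counts as positive: at 2 or more UMIs the share term for day 2 was -0.83 and the level term -0.65, and at 3 or more they were -1.32 and -0.40. Shares of cells with 3 or more Slc12a1 UMIs were 29.1%, 11.7%, 6.61% and 17.9%, against 3.53%, 0.168%, 0.0397% and 0.331% of leukocytes. Without thinning, the share with any UMI was 41.8%, 45.2%, 25.1% and 38.6%, the tubule cells of day 2 being the deepest. Leukocytes, which should lack the gene, had a thinned share of 9.41% in sham (85 cells, median 2919 UMIs), 2.19% at day 2 (8528.5 UMIs), 0.793% at day 7 (5850 UMIs) and 2.65% after reversal (5082 UMIs).

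Umod was detected in 52.4%, 62.4%, 40.3% and 47.8% of thinned tubule cells at 10.2, 9.25, 6.98 and 9.01 UMIs per positive cell. Of thinned leukocytes, 10.6%, 17.8%, 9.72% and 14.9% held a Umod UMI, and where these UMIs came from was not tested. At 3 or more UMIs, where at most 3.53% of leukocytes in any library pass, the shares of tubule cells were 36.6%, 41.7%, 24.6% and 32.4%. Day 2 had the highest share at either cut, with intervals that overlap those of sham, whereas the share of Slc12a1 was highest in sham. UMIs per positive cell were highest in sham for Umod and Slc12a1 alike.

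For Calb1 the level term was the larger after reversal in every setting with a split, and for Slc12a3 the split turned on the settings. Calb1 was in 13.4% of cells at 4.18 UMIs in sham, 3.70% at 1.45 at day 2, 7.21% at 1.64 at day 7 and 8.45% at 3.32 after reversal. On reversal against day 7 its level term was 1.02 and its share term 0.23. The level term was the larger in all 10 settings with a split, at 1.02 to 1.34. A split needed 20 positive cells in each library, and a limit of 20% on mitochondrial UMIs, described last, gave none. Cuts of 2 or more and of 3 or more UMIs gave none either. At 3 or more, Calb1 was in 1.60% of cells at 3.25 UMIs at day 7 and 3.65% at 6.11 after reversal. There the share differed by the larger factor. At 2 or more it was in 2.61% at 2.77 and 4.61% at 5.25, where the level did. Slc12a3 was in 6.16%, 5.74%, 10.2% and 11.3% of cells at 3.39, 1.94, 1.69 and 2.88 UMIs per positive cell, with a level term of 0.77 and a share term of 0.15 on reversal against day 7. At 2 or more UMIs these were 0.43 and 0.97, and at that 20% limit 0.043 and -0.54. Between day 2 and day 7 the order of terms was the other way, with a share term of 0.83 for Slc12a3 and 0.96 for Calb1 and level terms of -0.20 and 0.18. That order did not hold throughout: for Calb1 another random draw of the thinning gave a share term of 0.11 and a level term of 0.37, and no thinning gave 0.13 and 0.50, while for Slc12a3 the gate alone gave 0.11 and -0.22. The mean content of positive Calb1 cells was thus higher after reversal than at day 7, but it rested on few cells: without thinning the median positive cell held 3 UMIs at day 7 and 2 after reversal, 48 of 104 positive reversed cells held 1, the richest held 158, and the richest 10% of reversed tubule cells held 95.9% of Calb1 UMIs. How share and level of either gene differed between day 2 and day 7 was not settled at these counts. Background was low, at most 1.68% of leukocytes for Slc12a3 and 2.35% for Calb1. Pvalb was positive in 3.77% of sham cells (11 cells) and 1.73% of reversed cells (9 cells) and in none on days 2 and 7.

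**Figure D2:**
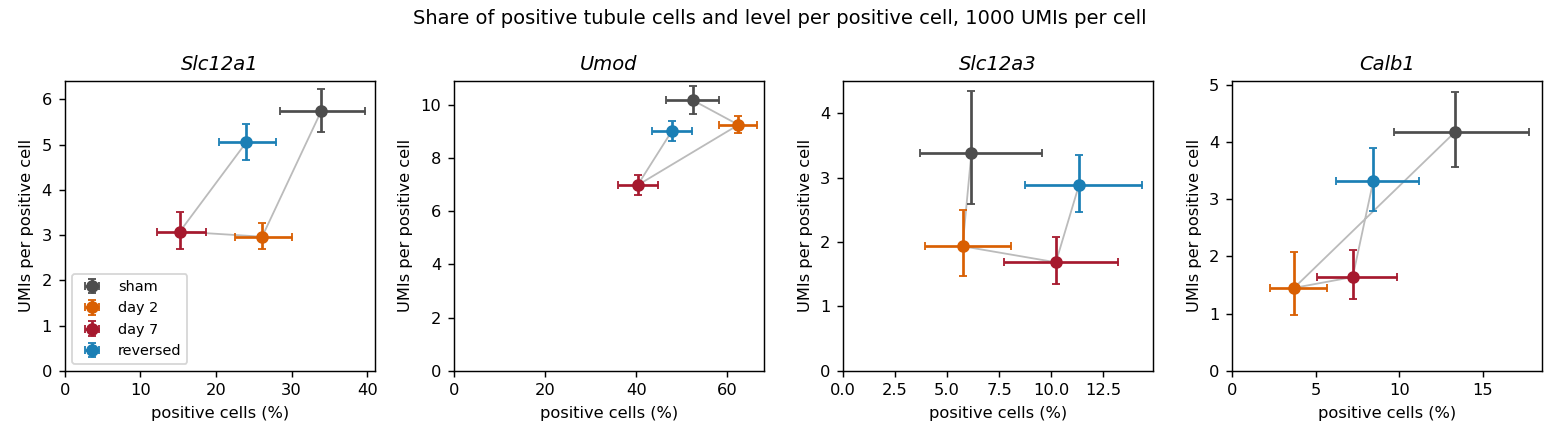
Share of tubule cells with at least 1 UMI (x, percent) against UMIs per positive cell (y), both at 1000 UMIs per cell, for Slc12a1, Umod, Slc12a3 and Calb1; bars are 95% intervals for counting error, and a grey line joins the libraries in time order. Slc12a1 is at 5.74 UMIs in sham and 2.96 at day 2, and Calb1 is at 1.64 at day 7 and 3.32 after reversal with a similar share.

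A ratio of UMIs of 2 genes leaves out cells that carry neither. It is a ratio within a segment only where both genes lie in the same cells, and Kcnj1 and Calb1 also come from principal cell-like cells. Slc12a1 per 100 Umod UMIs was 37.0 in sham (35.4 to 38.7), 13.4 at day 2, 15.7 at day 7 and 27.7 after reversal. Over all cells kept the values were 33.5, 13.2, 15.4 and 28.1. Kcnj1 per 100 Umod ran in the same order over all tubule cells, at 6.36, 3.03, 3.69 and 5.47. In the thick ascending limb-like clusters described further on it was 3.28 in sham (2.86 to 3.75), 2.44 at day 2 (2.15 to 2.76), 1.56 at day 7 (1.32 to 1.83) and 2.78 after reversal (2.39 to 3.20), so day 7 was the lowest there and day 2 lay less than 2-fold below sham. Cldn16 per 100 Umod over all tubule cells ran the other way, at 0.776, 1.14, 1.59 and 0.939. The NKCC2 transcript was therefore more than 2-fold below its sham ratio to uromodulin over the tubule cells of both obstructed libraries and between these and sham after reversal, and the claudin was not. Among thick ascending limb-like cells of day 2 the ratio was 21.8 against 39.3 in sham, less than 2-fold lower.

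In the distal genes, Pvalb per 100 Slc12a3 UMIs was 29.4 in sham (22.9 to 37.4), 0.361 at day 2 (0.0436 to 1.31), 0 at day 7 (up to 0.449) and 9.62 after reversal (7.90 to 11.6). Calb1 per 100 Slc12a3 was 290.2, 52.0, 50.2 and 110.1 over all tubule cells. In sham, day 2 and reversed cells this sets mostly principal cell-like Calb1 against Slc12a3 of other clusters, while at day 7 most UMIs of both lay in unnamed cluster 15. In distal convoluted tubule-like cluster 6 alone it was 77.9 in sham (64.7 to 93.7) and 34.8 after reversal (30.4 to 39.8). Trpm6 per 100 Slc12a3 was 5.07, 7.76, 7.28 and 7.44, with overlapping intervals. Over all cells kept it was 4.18 in sham (2.84 to 5.96), 7.26 at day 2 (5.49 to 9.45), 7.93 at day 7 (6.47 to 9.64) and 7.28 after reversal (6.12 to 8.62), so day 7 and reversal then lay above sham without overlap. Parvalbumin was thus low relative to the NCC transcript during obstruction and stood after reversal between obstruction and sham, the Calb1 ratio over all tubule cells depends on the makeup of segments, and for the magnesium channel no difference was detectable in tubule cells at 15 to 92 UMIs.

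**Figure D3:**
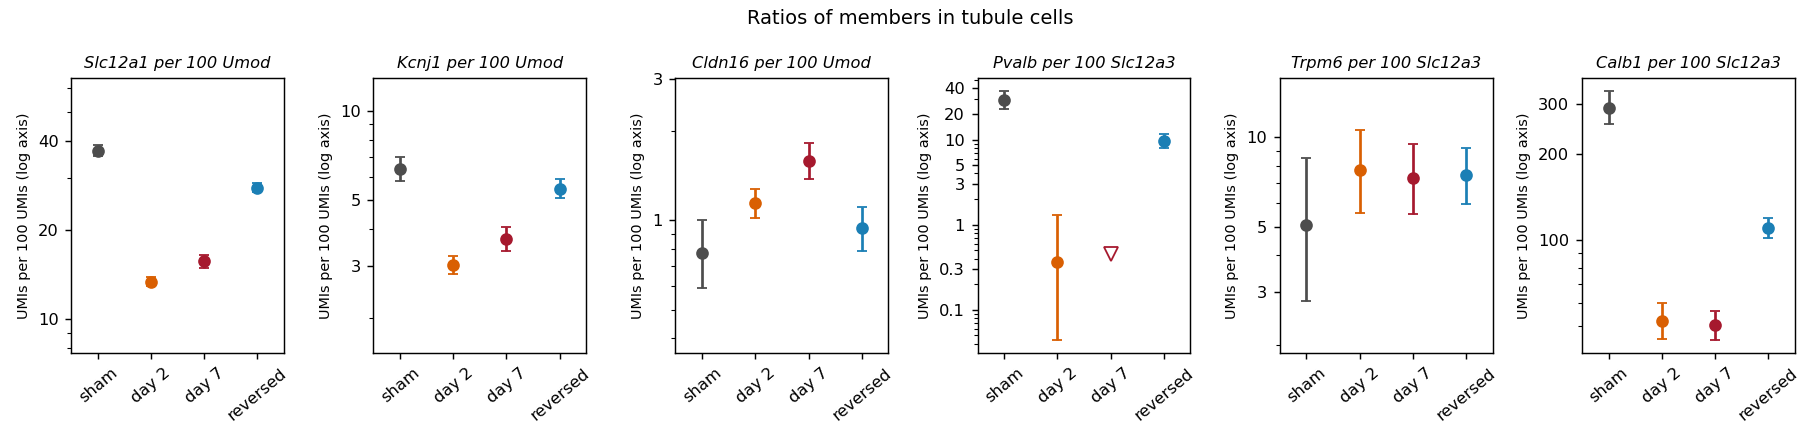
UMIs of one gene per 100 UMIs of another in all tubule cells of each library, in 6 panels with log axes; bars are 95% intervals and the open triangle is the upper limit where Pvalb had 0 UMIs. Slc12a1 per Umod and Pvalb and Calb1 per Slc12a3 are highest in sham, and reversal lies above day 7 in all 3.

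To ask which cells carried these UMIs, the tubule cells were clustered on variable genes without the 8. Clusters were named by markers, which left 5 of 17 unnamed. The names do not follow the number of markers alone. Cluster 16 was named with 3 of 8 loop markers, while cluster 11, with 6 of 8 proximal tubule markers, and cluster 15, with 4 of 6 distal markers, stayed unnamed. Thick ascending limb-like cells fell into 3 clusters by library: cluster 1 (89 of 98 cells from sham), cluster 3 (82 cells of day 2 and 63 of reversal) and cluster 16 (98 cells, all of day 7, led by Kng1, Mmp7 and Lrg1, with 3 of 8 loop markers). A cluster mostly of 1 library may be that library and not a type. Cluster 13, 153 of 159 cells from day 2 and led by Sprr1a, Cldn14, Slc34a2 and Lcn2, and cluster 10, with 114 reversed and 38 day 7 cells led by Gabrp and Krt19, stayed unnamed.

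In sham 95.4% of Slc12a1 UMIs and 89.7% of Umod UMIs lay in cluster 1. Slc12a1 was at 6575 CPM there (6327 to 6831), 3760 in day 2 cells of cluster 3 (3609 to 3917), 1901 in day 7 cells of cluster 16 (1816 to 1989) and 6161 in reversed cells of cluster 3 (5905 to 6426). It was detected without thinning in 100%, 98.8%, 93.9% and 100% of those cells, so within them nearly every cell was positive and the sums differed. Umod in the same cells was at 16714, 17262, 10175 and 19562 CPM, Kcnj1 at 549, 421, 159 and 543, and Cldn16 at 125, 224, 166 and 93.3. Slc12a1 per 100 Umod was 39.3 in cluster 1 of sham, 21.8 and 31.5 in cluster 3 of day 2 and of reversal, and 18.7 in cluster 16. The low ratio of the obstructed libraries was thus also present among cells called thick ascending limb-like, while the level of Slc12a1 itself in reversed cells of cluster 3 was near that in sham. With coarser clusters (Leiden resolution 0.5) fewer than 20 cells of sham or of day 7 lay in clusters of this name, and the values were 1966 CPM at day 2 and 5797 after reversal.

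Other cells of the obstructed and reversed kidneys held the rest. Cluster 13 carried 51.0% of day 2 Umod at 9133 CPM but 31.2% of Slc12a1 at 747 CPM, a ratio of 8.18 Slc12a1 per 100 Umod, and it also carried 74.7% of the Slc12a3 UMIs of day 2. Cluster 10 carried 35.5% of reversed Slc12a1 at 1601 CPM, with 58.8% of its 114 reversed cells positive, and 34.2% of reversed Umod at 5554 CPM. Uromodulin was also at 261, 1816, 980 and 725 CPM in intercalated cell-like cluster 0, cells not known to make it. Other clusters not known to make it ran from lower to higher, with 345, 275 and 156 CPM at day 2, day 7 and reversal in intercalated cell-like cluster 5, 121 CPM in sham and then 281, 105 and 180 in principal cell-like cluster 7, 319 in sham in proximal tubule-like cluster 2, and 1972 at day 7 and 1021 after reversal in endothelium-like cluster 8.

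Distal convoluted tubule-like cells formed cluster 6, with 22 cells of sham, 38 of reversal, 3 of day 2 and 0 of day 7. Their Slc12a3 was at 3191 CPM in sham and 3438 after reversal, and Kcnj1 at 765 and 654. Pvalb was at 896 CPM (705 to 1124) and 432 (353 to 523) and Calb1 at 2486 and 1197 in the same order. As a share of all UMIs the salt carrier was thus at a like level in both libraries and the calcium buffers were more than 2-fold below sham after reversal. Reversed cells were deeper, and in UMIs per positive cell Slc12a3 was at 14.8 in sham and 22.0 after reversal, Pvalb at 6.25 and 6.18 and Calb1 at 13.9 and 13.2, with Pvalb per 100 Slc12a3 at 28.1 and 12.6. At day 7, 90.3% of Slc12a3 UMIs lay in unnamed cluster 15 (135 cells of day 7 and 43 of reversal, led by Sprr2f, Slitrk4 and Trpv5), which showed 4 of 6 distal markers. There Slc12a3 was at 725 CPM at day 7 and 644 after reversal, Trpm6 at 36.1 and 30.6, and Pvalb at 0 and 1 UMI in all. Reversed kidneys therefore held Slc12a3 transcripts both in cells with Pvalb and in cells all but without it.

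Principal cell-like cluster 7, which holds cells of all 4 libraries (49, 51, 36 and 41) and also shows connecting tubule markers, carried 72.6% of Calb1 UMIs in sham, 58.7% at day 2 and 70.9% after reversal, but 31.6% at day 7. At day 7 unnamed cluster 15 carried 62.1%, at 250.5 CPM, against 104.7 CPM in its reversed cells. In cluster 7 Calb1 was at 2279 CPM in sham (2103 to 2465), 349 at day 2 (298 to 406), 530.3 at day 7 and 2759 after reversal (2588 to 2939). The log2 ratio of day 2 to sham was -2.71 (-2.96 to -2.46) and that of reversal to day 7 was 2.38 (2.11 to 2.65). Without thinning, positive cells were 85.7%, 72.5%, 72.2% and 65.9%, with a mean of 14.9, 4.57, 5.04 and 35.7 UMIs in each. Depth enters these means, and in CPM the reversed cells were only 1.21-fold above sham. Against day 7 the reversed level thus came with more UMIs per positive cell and not with a larger share of positive cells. Kcnj1 in the same cells was at 621, 521, 381 and 417 CPM, and its log2 ratio of day 2 to sham was -0.25 (-0.54 to 0.04). The low Calb1 of day 2 was therefore also present within a cluster shared by all libraries, where Kcnj1 differed less. With coarser clusters (Leiden resolution 0.5) the principal cell-like values were 301 CPM at day 2, 285 at day 7 and 1834 after reversal, and with the 8 genes used for clustering they were 301, 271 and 1701, so day 7 then lay below day 2 and reversal below sham. Kcnj1 was at 439 CPM at day 2 under both, at 210.2 and 208 at day 7 and at 284 and 276 after reversal.

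**Figure D4:**
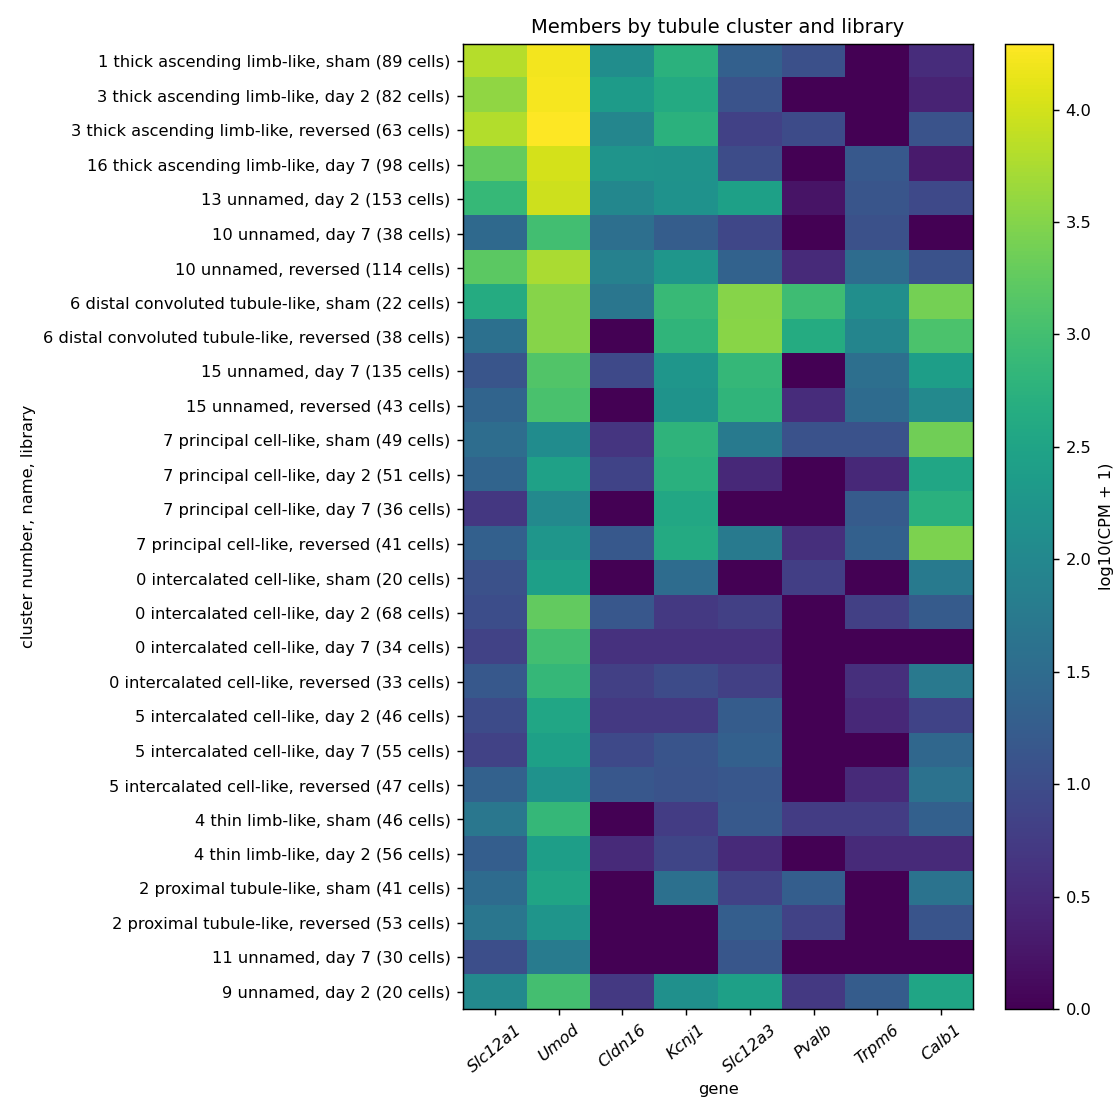
Level of each gene, as log10 of CPM plus 1, in each cluster of tubule cells split by library (20 cells or more, endothelium left out). Slc12a1, Umod and Cldn16 share the thick ascending limb-like clusters, Slc12a3 and Pvalb share distal convoluted tubule-like cluster 6, and cluster 15 shows Slc12a3 with next to no Pvalb.

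**Figure D5:**
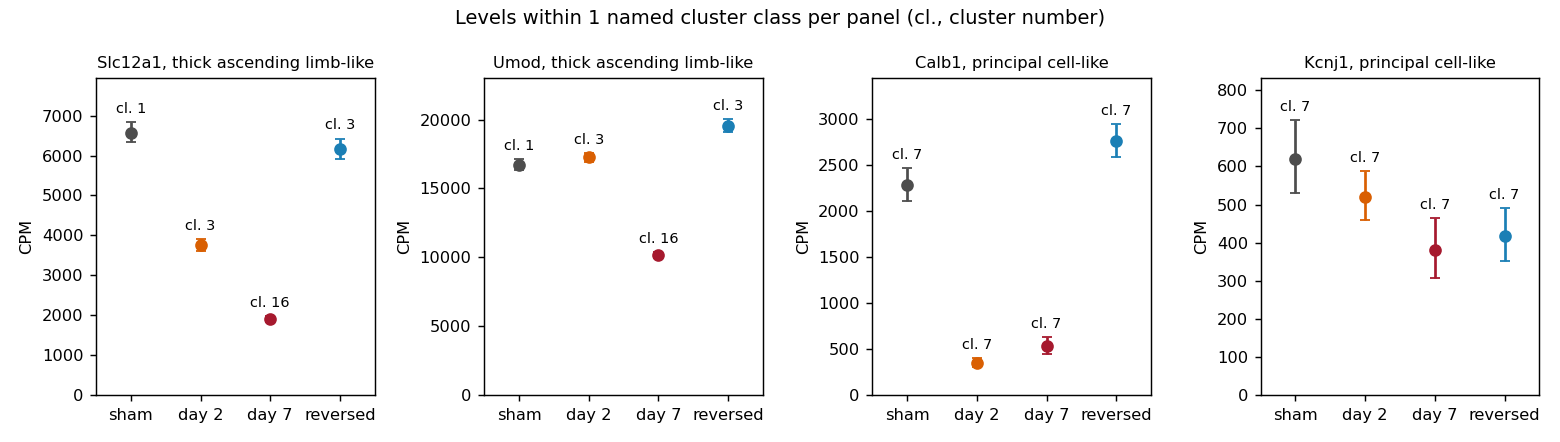
Levels in CPM with exact 95% Poisson intervals by library, for Slc12a1 and Umod in thick ascending limb-like clusters (cluster numbers written beside the points) and for Calb1 and Kcnj1 in principal cell-like cluster 7; axes start at 0. Slc12a1 is at 6575 in sham and 1901 at day 7, and Calb1 is at 2279 in sham and 349 at day 2.

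No cell held 5 or more UMIs of both salt carriers in any library. Cells with 5 or more UMIs of Slc12a1 without thinning numbered 94 in sham, 147 at day 2, 75 at day 7 and 121 in the reversed library, and 0 of them reached 5 UMIs of Slc12a3, with upper limits of 3.85%, 2.48%, 4.80% and 3.00%. Nearly all of these cells did reach 5 UMIs of Umod (91 of 94, 147 of 147, 74 of 75 and 120 of 121), but so did 8 of 13, 23 of 32, 38 of 55 and 38 of 53 Slc12a3 cells, so Umod at that count does not mark loop cells in these libraries. Calb1 reached 5 UMIs in 7 of 13 Slc12a3 cells in sham, 0 of 32 at day 2, 9 of 55 at day 7 and 13 of 53 after reversal.

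Slc12a1 was also unequally spread among cells. The 10% of tubule cells richest in it held 54.3% of its UMIs in sham, 66.1% at day 2, 84.2% at day 7 and 67.8% after reversal, and cells with 10 or more UMIs without thinning were 27.7%, 20.2%, 12.02% and 20.3%. The richest cell of a library held 95, 112, 93 and 118 UMIs, so cells with a high raw count were present at day 7 too, and were fewer. These counts are without thinning, and median depth was 4583 UMIs in sham and 7591 at day 7. They do not show that the richest day 7 cells held as large a fraction of their UMIs as those of sham.

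Across 25 profiles of a cluster in a library, the genes most like Slc12a1 by Pearson correlation of log levels were Slc5a1 (0.96), Cldn16 (0.89) and Umod (0.84). Those most like Kcnj1 were Kcnj10 (0.91), the basolateral potassium channel of the distal nephron, Tfap2b (0.89), which encodes AP-2 beta, and Sostdc1 (0.84). Among genes with at least 500 UMIs in tubule cells, those most like Slc12a3 were Trpm7 (0.87), Tsc22d2 (0.75) and Sgms2 (0.72); Trpm6, with 210 UMIs, stood at 0.78 to it. Trpm6 was itself most like Tsc22d2 (0.85). For Calb1 they were Pgam2 (0.90), Hsd11b2 (0.85), which keeps glucocorticoids off the mineralocorticoid receptor, and Ptgfr (0.82). Pvalb had no neighbour above 0.69 (Pcca and Sgms2). The profiles share libraries and depth, and the correlations describe them only.

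Other genes of both segments were taken from lists of 20 loop and 22 distal genes, which share 6 (Egf, Kcnj10, Kcnj16, Fxyd2, Stk39 and Oxsr1). At day 2 against sham, 5 of 19 loop genes tested were 2-fold lower and 2 higher, and 11 of 21 distal genes were lower and 0 higher, beside 6.02% and 6.08% of all genes. Egf, the growth factor of the loop and distal convoluted tubule, was at 3570 CPM in sham and 204 at day 2 (log2 -4.13). Kcnj10 was at 95.1 and 33.4, Ppp1r1b, a phosphatase inhibitor, at 82.0 and 32.2, Wnk1, a kinase upstream of both cotransporters, at 568 and 124, and Tmem52b at 599 and 187. Egf and Kcnj10 count as lower in both lists.

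At day 7 against day 2, 2 of 19 loop genes were lower and 1 higher, with Ptger3, a prostaglandin receptor of the loop, at 89.6 and then 41.9 CPM, and the tight junction gene Cldn19 at 122 and then 61.5. Cldn19 was at 57.2 CPM in sham and was 1 of the 2 loop genes higher at day 2. The shares of all genes were 0.959% and 6.72%. Of 21 distal genes 0 were lower and 6 higher, among them Trpv5, the apical calcium channel, at 21.7 and then 60.3, Wnk1 (332 at day 7) and Tmem52b (475 at day 7). On reversal against day 7, 1 loop gene of 19 was lower and 2 higher, and 1 distal gene of 22 was lower and 3 higher, beside 2.57% and 2.6% of all genes. A count of 1 of 19 or of 22 is near that background. Egf went from 128 to 1105 CPM, Wnk4, a kinase that sets NCC activity, from 33.7 to 81.7, and Trpv5 from 60.3 to 19.2.

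On reversal against sham, 3 of 18 loop genes were lower and 0 higher, and 4 of 22 distal genes were lower and 2 higher, beside 2.21% and 10.9% of all genes. Egf was still at a log2 ratio of -1.69, Ppp1r1b at -2.06 and Kcnj10 at -1.29. S100g, the small calbindin of the distal nephron, was at 4719 CPM in sham and 1565 after reversal (log2 -1.59), and Hsd11b2 at 799 and 302. The median log2 ratio of the loop list was -0.19, -0.41, 0.15 and -0.56 in the 4 comparisons and that of the distal list -1.12, 0.15, 0.22 and -0.26, beside all-gene medians within 0.01 of 0, 0.16, within 0.01 of 0, and 0.19.

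A stricter limit on mitochondrial UMIs moved many of these values, and sham cells rich in the loop genes were also rich in mitochondrial UMIs (median 34.3% in cluster 1). At 20% or less, 90, 353, 421 and 331 tubule cells remained, with 12 of 89 sham cells of cluster 1 and 1 of 22 sham and 2 of 38 reversed cells of cluster 6. The log2 ratio of day 2 to sham was then -0.75 for Slc12a1, -0.40 for Kcnj1, -2.59 for Calb1, -4.24 for Pvalb (5 sham UMIs), 1.44 for Umod, 1.28 for Cldn16 (8 sham UMIs) and 1.33 for Slc12a3 (15 sham UMIs). On reversal against day 7 Slc12a1 was at 0.61, Calb1 at 0.0061, Slc12a3 at -0.68 and Umod at -0.25, the last 2 with their direction turned. At day 7 against day 2 Slc12a3 was at 1.16, Trpm6 at 0.97 and Cldn16 at 0.31. On reversal against sham Slc12a3 was at 1.81, Trpm6 at 2.31 (2 sham UMIs), Cldn16 at 0.96 and Umod at 0.85, and Slc12a1 was at -0.18, Kcnj1 at -0.46, Calb1 at -1.97 and Pvalb at -2.36. Slc12a1 per 100 Umod was 57.5, 12.6, 15.5 and 28.2 in these cells, the order of libraries found without the limit. Pvalb per 100 Slc12a3 was 33.3, 0.704, 0 and 1.86, the reversed value resting on 6 UMIs, and Calb1 per 100 Slc12a3 was 933, 61.6, 42.2 and 68.1. The summed levels of Umod, Cldn16 and Slc12a3 at day 2 lay more than 2-fold above sham.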

How the data were processed

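Per the submitters' processing notes, Cell Ranger with STAR and GRCm38/mm10 were used. The values are counts of UMIs per gene and cell, deposited by the authors without normalization, in 1 matrix a library. The deposited matrices hold 16876 cells and 18649637 to 30462683 UMIs a library; cells with fewer than 200 genes or more than 50% mitochondrial UMIs and the cells with the highest Scrublet doublet scores, at an assumed rate of 0.8% per 1000 cells (48 to 187 a library), were left out. A plate-based sample was not used here. Members' UMIs were summed over tubule cells and divided by their total UMIs (CPM), with exact Poisson intervals at 95%, Clopper-Pearson intervals for shares and conditional binomial intervals for ratios. No p-value was computed. Genes were compared where either library reached 10 CPM, and a 2-fold ratio was the call. The members and lists were chosen with earlier results of these data known. Named genes are the 8 members, up to 3 most alike genes by Pearson correlation each, and, per list and comparison, pathway genes among the 3 largest ratios at 50 CPM or more. Clusters were made with scanpy 1.11.5 and leidenalg 0.10.2 and other scalings with edgeR 4.0.16 and DESeq2 1.42.0, used for size factors only. The scripts were tested on simulated data with known changes. Alternatives covered cell filters, gate, thinning, cut and scaling.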

Additional observations from a re-analysis of the deposited data

How the results depend on the processing

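Counts of genes past 2-fold and of genes with the larger share term moved by more than 1.5 times as follows, and the causes were not tested. The genes with enough positive cells for a split differed by setting, so counts of larger share terms are not over the same genes. For day 2 against sham at the 20% mitochondrial limit only Umod had a split. For day 7 against day 2 at 2 or more and at 3 or more UMIs only Slc12a1 and Umod did, both with the larger share term. Without thinning all genes but Trpm6 had a split on reversal against sham. Shares over all genes were not computed for the alternatives. For day 2 against sham, only the 20% mitochondrial limit moved them, to 2 lower, 3 higher and 0 with the larger share term. For day 7 against day 2, TMM and median-of-ratios scaling each gave 1 lower, and the 20% limit and a gate of 2 Epcam UMIs each gave 1 higher; the share term was larger for 3 genes with the gate alone, 1 at the 20% limit, 3 with 2 Epcam UMIs, 2 at 2 or more and 2 at 3 or more UMIs, and 3 with the 99th percentile of background as the cut. For reversal against day 7, the 20% limit gave 0 higher; the share term was larger for 2 genes with the gate alone, at the 20% limit, without doublet removal, at 2000 UMIs, at 3 or more UMIs and without endothelium, stroma and leukocyte clusters, and for 3 without thinning and at 2 or more UMIs. For reversal against sham, lower genes were 2 with the gate alone, at the 20% limit and without doublet removal, 3 without mitochondrial UMIs and with TMM, 4 with median of ratios, and 0 with 2 Epcam UMIs and without the endothelium, stroma and leukocyte clusters; higher genes were 2 at the 20% limit and 0 with the gate alone, without mitochondrial UMIs, with each cell weighted equally and with both scalings; the share term was larger for 1 at the 20% limit and with 2 Epcam UMIs and for 5 without thinning.

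Leaving out the non-epithelial clusters and the cut of 3 UMIs were chosen after seeing the data. Of 1276 other values under alternatives, 852 stayed within counting error of the reported value and 424 moved. No log2 ratio of a member past 2-fold changed sign; of 341 ratios 10 changed sign, all of them under 2-fold as reported, 7 of them at the 20% limit (Slc12a3, to past 2-fold, and Trpm6 at day 2 against sham, Cldn16 at day 7 against day 2, Umod and Slc12a3 on reversal against day 7, and Umod and Cldn16 on reversal against sham) and 3 elsewhere (Umod at day 2 against sham with the gate alone and without mitochondrial UMIs, and Slc12a3 on reversal against sham with the gate alone). TMM shifted all log2 ratios by 0.02, -0.19, -0.01 and -0.18 in the 4 comparisons. Pvalb, Trpm6 and Cldn16 are limited by depth, at 308 UMIs or fewer a library. No paired analysis was possible because each group is 1 library.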
